A study of Mus musculus with 3 samples.

Results

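Epithelial barcodes with a high mitochondrial share were examined in 3 single-cell RNA sequencing libraries of mouse small intestinal crypts. A barcode, the tag of 1 droplet, belonged to them when it held at least 200 genes, at least 500 unique molecular identifiers (UMIs, each standing for 1 captured RNA molecule), over 20% of UMIs from the 13 mitochondrially encoded protein genes, at least 1 UMI of *Epcam* (an epithelial adhesion molecule) and no UMI of *Ptprc* (CD45, carried by leukocytes). There were 5953 such barcodes among 14387 in all. The KO library gave 2039 of 4786, the rescue library 862 of 3449 and the control library 3052 of 6152. They were divided into a band of 20-50% mitochondrial UMIs (1534 KO, 330 rescue and 697 control barcodes) and a band of over 50% (505 KO, 532 rescue and 2355 control barcodes). They were set beside 2840 epithelial barcodes with at most 20% mitochondrial UMIs, at least 2 UMIs of *Epcam* and none of *Ptprc* (1530 KO, 738 rescue and 572 control barcodes). The barcodes were selected on these measured values, the mitochondrial share, *Epcam*, *Ptprc* and the minima, so those values are descriptions.

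All mice were C57BL/6 adults of 2-3 months and carried Olfm4-IRES-eGFPCreERT2, a Cre recombinase under *Olfm4* that is made to act by tamoxifen. *Olfm4* is expressed at the crypt base, so recombination is expected only in those cells and their progeny, and the share of recombined cells was not analysed here. The KO mice had the genotype CDC42flox/flox. The rescue mice had CDC42flox/flox with Yapflox/flox and Tazflox/+. The control mice, labelled Het, had CDC42+/flox, so the control too can lose 1 *Cdc42* allele. CDC42 is a small GTPase that sets epithelial polarity, and YAP and TAZ are transcriptional co-activators of the Hippo pathway. There was 1 library per genotype, so genotypes and libraries cannot be told apart, no test between libraries was possible, and intervals cover counting error only.

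The mitochondrial genome encodes core subunits of the respiratory chain and of ATP synthase, and its transcripts stay inside the organelle, whereas most other messenger RNAs lie in the cytosol and nuclear non-coding RNAs such as *Malat1* stay in the nucleus. In the small intestine stem cells at the crypt base feed dividing progenitors, which give absorptive enterocytes and secretory goblet, Paneth, enteroendocrine and tuft cells. A high mitochondrial share in droplet data is widely used as a limit on barcodes and is known both from leaking cells and from cells rich in mitochondria.

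The tables held 85525811 UMIs in the KO, 64355665 in the rescue and 58433966 in the control library. Barcode sequences shared between libraries numbered 11 for KO and control, 6 for rescue and KO and 3 for rescue and control. *Cdc42* stood at 298 UMIs for each 1000000 non-mitochondrial UMIs (written CPM) in KO members, 427 CPM in rescue members and 199 CPM in control members. Reads of the 3' end need not come from a deleted exon, so this does not check the labels. *Yap1*, which encodes YAP, stood at 38.7 CPM in KO, 28.1 CPM in rescue and 72.2 CPM in control members, and *Wwtr1*, which encodes TAZ, at 13.1 CPM in KO, 2.4 CPM in rescue and 20.9 CPM in control members. *Xist*, transcribed from the inactive X chromosome, stood at 734 CPM in KO, 1078 CPM in rescue and 1.45 CPM in control members, and the Y-linked *Ddx3y* at 0 CPM in KO, 5.83 CPM in rescue and 75.8 CPM in control members. The labels give no sex, and a difference in sex cannot be told apart from genotype.

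Under the limits used, high-mitochondrial barcodes were most of the selected epithelial barcodes in the control and over 50% of them in the other libraries. Members needed 1 *Epcam* UMI and the other barcodes 2, which raises the share. With a minimum of 1 or 2 on both sides it was 55.3% or 52.2% (KO), 50.1% or 49.2% (rescue) and 80.4% or 80.5% (control). As a share of all selected epithelial barcodes the members were 57.1% in the KO (exact 95% binomial interval 55.5 to 58.8), 53.9% in the rescue (51.4 to 56.3) and 84.2% in the control (83.0 to 85.4). The over-50% band held 24.8% of the KO members, 61.7% of the rescue members and 77.2% of the control members. A single *Epcam* UMI carried the epithelial call in 18.2% of KO, 17.1% of rescue and 22.7% of control members. Further barcodes over 20% had neither *Epcam* nor *Ptprc* (489 KO, 304 rescue and 762 control) or had both (31 KO, 81 rescue and 185 control) and were not members.

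In the over-50% band the median member held more mitochondrial UMIs than the median of the other epithelial barcodes and far fewer others, and at 20-50% it held fewer of both. In the over-50% band the median barcode held 3215 non-mitochondrial UMIs in the KO, 3100 in the rescue and 1834 in the control, against 36811.5, 39517.5 and 26992.5 in the barcodes with at most 20% of the same KO, rescue and control libraries. Mitochondrial UMIs per barcode had medians of 5440 in the KO, 6695.5 in the rescue and 4941 in the control for the over-50% band. In the barcodes with at most 20% these medians were 3717.5 in the KO, 5984 in the rescue and 3212.5 in the control. At 20-50% the medians were 3199 non-mitochondrial and 1642 mitochondrial UMIs in the KO, 3889.5 and 2613.5 in the rescue and 4342 and 3074 in the control. The rule used the ratio of these quantities, so neither is tested. At the lower limit, KO barcodes of 20 to 22% had a median of 9303 and those of 18 to 20% a median of 7614.5 non-mitochondrial UMIs. Across the same limit the medians were 32481.5 inside and 31480.5 outside in the rescue, and 5629.5 inside and 17615 outside in the control. At the upper limit, barcodes of 50 to 52% had medians of 4118.5 in the KO, 4796.5 in the rescue and 4513 in the control, against 4973, 4533.5 and 4223 for KO, rescue and control barcodes of 48 to 50%.

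**Figure D1:**
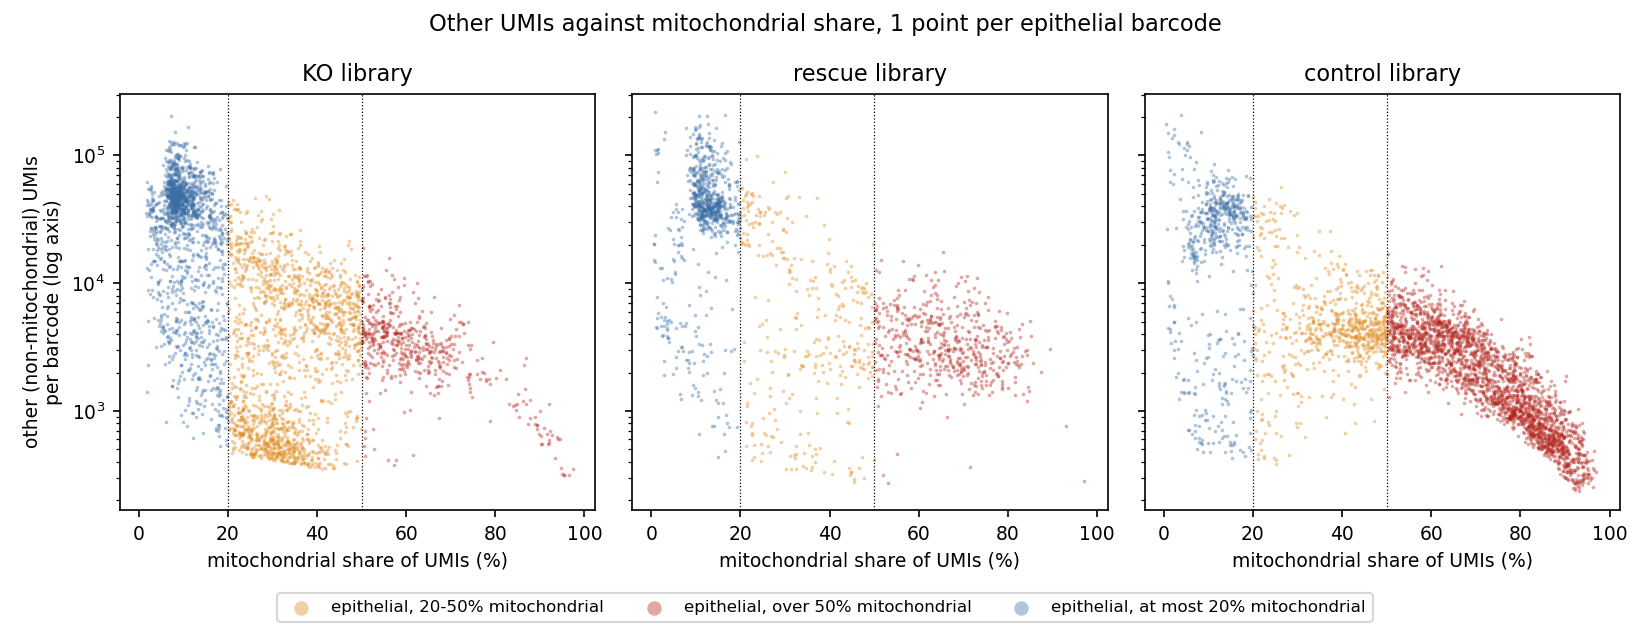
Non-mitochondrial UMIs per barcode (log axis) against the mitochondrial share of UMIs (%) for each selected epithelial barcode of the KO, rescue and control libraries, with dotted lines at 20 and 50%. Members of the over-50% band held a median of 3215 (KO), 3100 (rescue) and 1834 (control) such UMIs, and the KO panel has a separate shallow group among the barcodes of 20-50%.

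The KO members of 20-50% were not of 1 kind. Of these 1534 barcodes 601 (39.2%) held under 2000 UMIs, a limit chosen after the data were seen, against 72 (21.8%) of the rescue and 43 (6.17%) of the control barcodes in the same band. The shallow KO barcodes had a median of 608 non-mitochondrial UMIs and the deeper ones 6938. Markers of goblet cells summed to 42906 CPM in the shallow KO barcodes and 6004 CPM in the deeper ones. Erythroid markers summed to 5569 CPM in the shallow and 2641 CPM in the deeper ones, immune markers to 1061 and 77.1 CPM, and enterocyte markers to 69253 and 100078 CPM, each time with the shallow barcodes first. The KO barcodes over 20% that lacked *Epcam* and *Ptprc* likewise mixed enterocyte (58210 CPM), goblet (29422 CPM), erythroid (9083 CPM) and immune markers (2488 CPM). Shallow barcodes carried 410161 of the 8890320 non-mitochondrial UMIs of the KO band, and whether they are free RNA was not tested.

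Of the enterocyte, goblet, Paneth and enteroendocrine marker lists, the enterocyte list was most often reached among the high-mitochondrial barcodes of every library. Each barcode was thinned to 1000 non-mitochondrial UMIs, and it counted for a marker list when at least 10 of these came from the list, a limit chosen after the data were seen. For the 20 enterocyte markers this held in 97.7% of KO barcodes of 20-50% (96.6 to 98.6) and 99.6% of those over 50% (98.4 to 99.9), against 77.1% of KO barcodes with at most 20% (74.9 to 79.3). In the rescue the shares were 79.9% (74.6 to 84.5) and 97.7% (96.0 to 98.8) in the same bands, against 59.3% (55.6 to 62.9). In the control they were 42.8% (39.0 to 46.7) and 68.8% (66.5 to 71.1), against 28.8% (25 to 32.9). The share was higher in members than in the other epithelial barcodes in every library, and higher over 50% than at 20-50%. Immune barcodes of at most 20%, which should lack these genes, reached the limit in 7.2% (KO), 2.33% (rescue) and 0.275% (control) at median depths of 4343 (KO), 4329 (rescue) and 4557 (control) non-mitochondrial UMIs. They were selected with *Ptprc* and without *Epcam* UMIs, and their median depth exceeded that of members in either band. Their shares therefore do not bound the background in members. Without thinning the shares of members were 99.7 and 100% in the KO, 93 and 99.2% in the rescue and 78.2 and 71% in the control for the bands of 20-50% and over 50%, against 99.8% (KO), 98.4% (rescue) and 84.4% (control) of barcodes with at most 20%, which were deeper. Thinning left out 523 KO, 61 rescue and 31 control barcodes of 20-50%, 43 KO, 7 rescue and 702 control barcodes over 50% and 29 KO, 11 rescue and 52 control barcodes with at most 20%. Members with 8 to 11 enterocyte UMIs, close to the limit, numbered 21 and 2 in the KO, 19 and 6 in the rescue and 48 and 140 in the control for the 2 bands. Lists of low abundance can hardly reach this limit, so stem cell, dividing and tuft classes could not be ranked beside the enterocyte list. Of 520 thinned control barcodes with at most 20%, 14 reached it for the stem list, 6 for tuft, 3 for G2/M and 0 for S phase.

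Goblet shares, like those of the other lists, cover only barcodes deep enough to be thinned. At 20-50% in the KO 523 of 1534 were left out. The shallow KO barcodes were rich in goblet markers, so no order against barcodes with at most 20% is read there. Over 50% in the control 702 of 2355 were left out, so the control shares of that band are those of its deeper barcodes. The goblet list reached the limit in 8.8% of KO barcodes of 20-50% and 12.6% of those over 50%, against 14.9% with at most 20%. In the rescue it did so in 7.81% and 1.14%, against 8.25%, and in the control in 11.3% and 2.6%, against 19.4%. Goblet UMIs numbered 8 to 11, close to the limit, in 69 KO barcodes of 20-50% and 74 over 50%, and 12.3% of KO barcodes over 50% reached both the enterocyte and the goblet limit. Without thinning the goblet shares were 64.8% and 79.6% against 83.7% in the KO, 21.2% and 20.3% against 40.7% in the rescue and 25% and 10.1% against 51.2% in the control. Immune barcodes reached the goblet limit in 3.2% (KO), 0.847% (rescue) and 0.275% (control). The Paneth list without *Lyz2*, a gene also of macrophages, reached the limit in 5.11% of control barcodes of 20-50% and 7.8% of those over 50%, against 14.6% with at most 20%. Of the control barcodes over 50%, 181 lay close to the Paneth limit. The enteroendocrine list reached it in 1.5% and 0.363% of control members, against 9.04% with at most 20%. A barcode reached none when it was below the limit for the enterocyte, goblet, Paneth and enteroendocrine lists alike. None was reached by 43.7% of control barcodes of 20-50% and 27.1% of those over 50%, against 39.2% with at most 20%. The shares were only 1% and 0.433% of the KO members, against 12.3%, and 14.9% and 2.29% of the rescue members, against 30.9%.

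**Figure D2:**
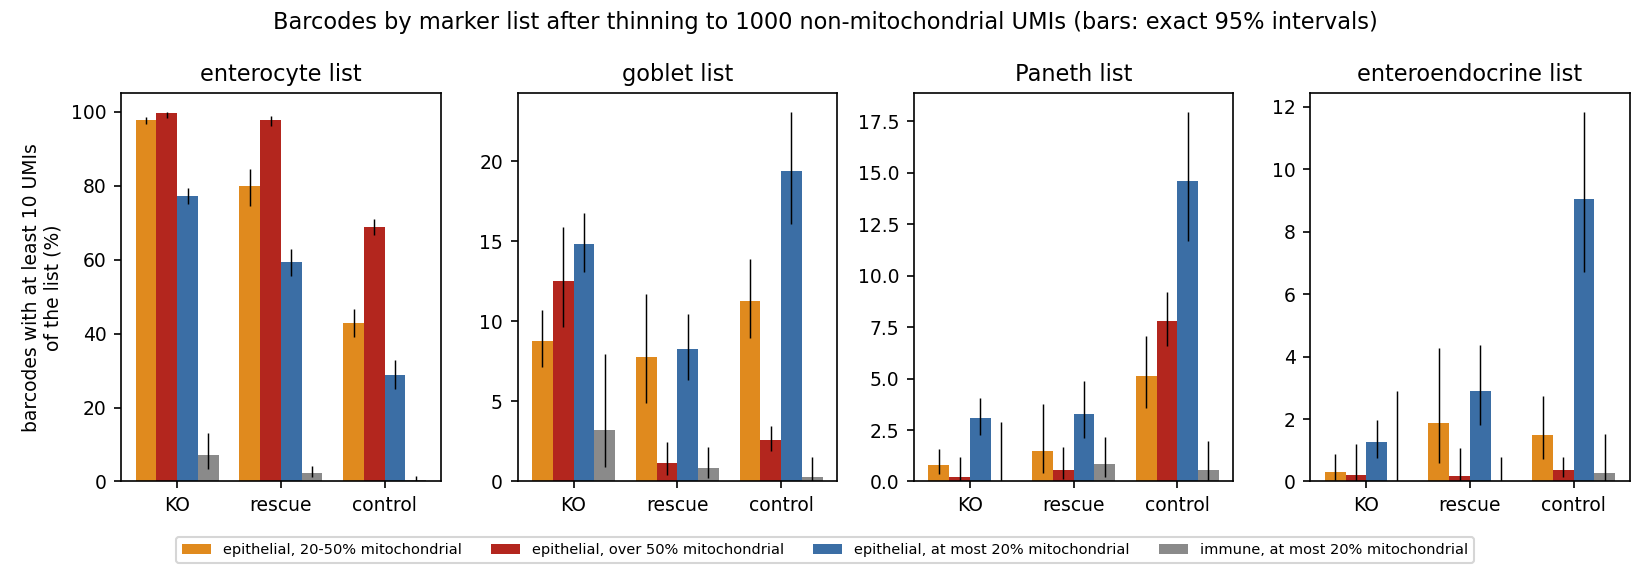
Percent of barcodes with at least 10 of 1000 thinned non-mitochondrial UMIs from the enterocyte, goblet, Paneth and enteroendocrine marker lists (a panel each, with its own axis) in the KO, rescue and control libraries, with exact 95% binomial intervals. Enterocyte shares were highest over 50% in every library (99.6% KO, 97.7% rescue and 68.8% control). Immune barcodes, selected without *Epcam* UMIs, are shown beside them and do not bound the background in members.

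Absorptive genes were described next from pooled non-mitochondrial UMIs, as the log2 ratio of CPM in members over barcodes with at most 20%, with a pseudocount of 1 CPM. Of 20 brush border and absorptive membrane proteins, 9 were over 2-fold higher in KO members, 19 in rescue members and 12 in control members, and none was over 2-fold lower in any library. Across all measured genes 8.8% were over 2-fold higher and 11.3% lower in KO members, 14% higher and 11% lower in rescue members, and 19.4% higher and 7.74% lower in control members. The list medians were 0.89 (KO), 1.71 (rescue) and 1.12 (control), beside medians over all genes of 0.05 (KO), 0.02 (rescue) and 0.14 (control). *Alpi*, intestinal alkaline phosphatase, stood at 5450 CPM in KO barcodes of 20-50% and 5769 CPM over 50%, against 2656 CPM with at most 20%. In the rescue *Alpi* stood at 1072 and 2469 CPM against 347 CPM, and in the control at 737 and 1419 CPM against 324 CPM. *Cdhr2*, a protocadherin that links microvilli, was 1.75 higher on the log2 scale in KO, 2.88 in rescue and 2.07 in control members. *Slc5a1*, the glucose transporter SGLT1, was 1.55 (KO), 2.38 (rescue) and 1.75 (control) higher on the same scale. *Slc7a9* had the smallest KO value of the list at 0.16.

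*Akp3*, which encodes a further intestinal alkaline phosphatase and lies beside *Alpi* on chromosome 1 (87124973-87127912 in GRCm38), was among the 12 genes chosen for the highest ratio in all 3 libraries. It stood at 600 CPM in KO barcodes of 20-50% and 1204 CPM over 50%, against 123 CPM with at most 20%. The *Akp3* values were 49 and 470 CPM against 7.09 CPM in the rescue and 38.3 and 131 CPM against 5.62 CPM in the control. The ratio of the pools was 5.7 (95% interval 5.51 to 5.89) in the KO, 27.9 (24.3 to 32.1) in the rescue and 15.9 (12.9 to 19.9) in the control. *Akp3* and *Alpi* are paralogs, and how the authors' counting divided reads between them was not tested. *Ggt1*, a brush border gamma-glutamyl transferase, was 3.74-fold (3.67 to 3.8) higher in KO, 9.84-fold (9.52 to 10.2) in rescue and 6.51-fold (6.26 to 6.76) in control members.

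Absorptive genes for proteins of the cytosol were, as a list, higher in rescue members, lower in KO members and close to the median of all genes in control members. The median over 20 of them was -0.35 in KO, 0.76 in rescue and 0.12 in control members, with 1 KO, 4 rescue and 1 control gene over 2-fold higher and 3 KO, 1 rescue and 2 control genes over 2-fold lower. *Fabp1*, the liver-type fatty acid binding protein, stood at 5107 and 2825 CPM in KO barcodes of 20-50% and over 50%, against 11256 CPM with at most 20%. *Fabp1* stood at 7475 and 3184 CPM against 4228 CPM in the rescue, and at 5069 and 2255 CPM against 7397 CPM in the control. Its control ratio of -1.07 turned to 1.08 without the barcodes of the highest 5% of UMIs. *Apoa1*, an apolipoprotein secreted in chylomicrons and so made at the endoplasmic reticulum, stood at 22764 and 24926 CPM against 10581 CPM in the KO, 5888 and 13353 CPM against 1313 CPM in the rescue and 4102 and 7837 CPM against 2268 CPM in the control.

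*Malat1* and *Neat1*, non-coding RNAs of the nucleus, were higher in members of every library. The list of nuclear-retained RNAs, in which *Malat1*, *Gm42418* and *Gm26917* had the most UMIs, summed to 74438 CPM in KO barcodes of 20-50% and 128954 CPM over 50%, against 14850 CPM with at most 20%. It summed to 34982 and 112296 CPM against 7917 CPM in the rescue, and to 104387 and 161625 CPM against 10804 CPM in the control. Every library had its highest sum over 50%. *Xist*, which differed between libraries, is also on this list, so the sums of the list are not compared between libraries. *Gm42418* and *Gm26917* are annotated as non-coding RNAs but lie at a locus known to collect reads of ribosomal RNA, so the sum is not one of nuclear RNA alone, and how much of it is ribosomal was not tested. Both together gave 51.4% and 51.0% of the sum in KO members of 20-50% and over 50%, 60.2% and 64.8% in rescue members and 87.2% and 87.5% in control members. Without them, a choice made after the data were seen, the list summed to 36147 and 63129 CPM against 7949 CPM in the KO, 13916 and 39501 CPM against 5812 CPM in the rescue and 13361 and 20159 CPM against 6222 CPM in the control. With them, over 2-fold higher in members were 7 of 9 measured in the KO, 3 of 6 in the rescue and 4 of 6 in the control, with medians of 1.61, 1.53 and 1.5 on the log2 scale for KO, rescue and control. Without them the counts were 5 of 7 (KO), 1 of 4 (rescue) and 2 of 4 (control), with medians of 1.46, 0.93 and 0.54. *Malat1* stood at 34392 and 60535 CPM against 7320 CPM in the KO, 12454 and 37086 CPM against 4858 CPM in the rescue and 12355 and 18763 CPM against 5793 CPM in the control. *Neat1*, the scaffold of nuclear paraspeckles, was 3.2-fold (3.13 to 3.28) higher in KO, 1.91-fold (1.84 to 1.98) in rescue and 2.91-fold (2.83 to 3) in control members. *Kcnq1ot1* was at 1.25 (KO), -1.01 (rescue) and -0.38 (control).

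*Gm26917* ranked first of the eligible genes by its smallest ratio over the 3 libraries. It stood at 10777 CPM in KO barcodes of 20-50% and 24683 CPM over 50%, against 695 CPM with at most 20%. The rescue had 10476 and 34812 CPM against 332 CPM, and the control 64640 and 99650 CPM against 2266 CPM. *Gm26917* (17:39843013-39846341, plus strand, GRCm38) and *Gm42418* (17:39846958-39848788, plus strand) are annotated as long non-coding RNAs next to each other, and *AY036118* (17:39847113-39848035, minus strand) lies inside *Gm42418* on the other strand. Reads of *Gm42418* and *AY036118* may therefore not be separable, since no use of strand is stated. *Gm42418* was 4.81-fold (KO), 11.4-fold (rescue) and 15.1-fold (control) higher in members, and *AY036118* 4.45-fold (KO), 6.1-fold (rescue) and 8.28-fold (control).

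The other genes with the highest ratio in all 3 libraries are annotated as protein-coding and were of several kinds. *Vegfa*, the vascular growth factor, stood at 82.9 and 183 CPM against 17.6 CPM in the KO, 71.1 and 288 CPM against 25.6 CPM in the rescue, and 151 and 299 CPM against 43.8 CPM in the control. *Smad7*, an inhibitor of TGF-beta signalling, was 4.51-fold (KO), 3.79-fold (rescue) and 4.47-fold (control) higher in members. The transcription factor gene *Foxo3* was 4.23-fold (KO), 6.72-fold (rescue) and 13.8-fold (control) higher. *Lars2*, annotated as mitochondrial leucyl-tRNA synthetase, was 5.52-fold (KO), 13.3-fold (rescue) and 14.5-fold (control) higher. Whether the reads counted for *Lars2* come from its messenger RNA was not tested. *Clec2d*, *Gm8909* and *Myo15b* completed the list, with ratios from 3.82 (*Myo15b*, KO) to 13.1 (*Gm8909*, rescue). Of 2811 genes with at least 50 CPM in 1 pool of each library, 1345 were higher and 978 lower in members in all 3 libraries, and 233 and 124 of them by over 2-fold.

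Ribosomal protein genes were lower in members. Of 20, 19 were over 2-fold lower in KO members, 17 in rescue members and 8 in control members, with medians of -1.66 (KO), -1.25 (rescue) and -0.91 (control). They summed to 11748 CPM in KO barcodes of 20-50% and 7605 CPM over 50%, against 32120 CPM with at most 20%. The sums were 33664 and 11896 CPM against 59382 CPM in the rescue, and 39030 and 19902 CPM against 47593 CPM in the control, so all 3 had their lowest sum over 50%. *Rps2* had 492 CPM in KO members and 2379 CPM with at most 20%, a log2 ratio of -2.27. *Rpsa* was nearest to 0 in the KO at -0.52 and stood at -0.36 in the rescue and 0.27 in the control. With the mitochondrial limit at 10% the control median turned to 0.13.

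As lists over pooled UMIs, Paneth and enteroendocrine markers were lower in members of every library. Paneth markers had medians of -1.42 (KO), -3.60 (rescue) and -3.87 (control), and *Lyz1*, Paneth lysozyme, stood at 39.1 and 34.2 CPM against 244 CPM in the KO, 69.7 and 207 CPM against 1823 CPM in the rescue and 859 and 640 CPM against 12091 CPM in the control. In the control pool with at most 20% the Paneth list took 102751 CPM, against 5942 and 5051 CPM in the control members of 20-50% and over 50%. *Gm15284* and *Gm14851*, members of the defensin locus whose near-identical copies make the counts uncertain, were the 2 lowest genes of the rule, at 16.2-fold and 17.3-fold lower in KO, 29.9-fold and 27.9-fold lower in rescue and 26.7-fold and 28.5-fold lower in control members. *Itln1*, intelectin, was 5.12-fold (KO), 9.64-fold (rescue) and 16-fold (control) lower. Of the hormone genes, *Cck* was 14.8-fold (KO), 11.3-fold (rescue) and 16.9-fold (control) lower. *Chgb*, a granin of hormone granules, was 6.59-fold (KO), 3.49-fold (rescue) and 4.85-fold (control) lower, although 1 barcode gave 64.3% of the rescue members' *Chgb* UMIs. *Chga*, chromogranin A, stood at 9.06 CPM in KO members and 37.7 CPM with at most 20%, 12.2 and 70.9 CPM in the rescue and 66.2 and 258 CPM in the control. Enteroendocrine markers over 2-fold lower numbered 13 of 19 (KO), 12 of 19 (rescue) and 17 of 17 (control).

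Goblet markers had medians of -1.54 in KO, -0.17 in rescue and -1.0 in control members, and the bands differed. At 20-50% the medians were -1.42 (KO), 0.12 (rescue) and -0.08 (control), and over 50% they were -2.06 (KO), -1.77 (rescue) and -2.09 (control). *Tff3*, a trefoil peptide of mucus, stood at 2044 and 1501 CPM against 6332 CPM in the KO, 3236 and 638 CPM against 1995 CPM in the rescue and 4348 and 893 CPM against 3677 CPM in the control. The mucin gene *Muc2* followed the same order, at 509 and 264 CPM against 1103 CPM (KO), 538 and 204 CPM against 344 CPM (rescue) and 595 and 137 CPM against 587 CPM (control). A single barcode held 21.9% of the *Muc2* and 22.1% of the *Tff3* UMIs of rescue members. These are pooled values. Thinned to 1000 UMIs, the median goblet count was 3 and 5 in KO members of the 2 bands, against 1 with at most 20%. It was 1 and 1 against 0 in the rescue and 1 and 2 against 1 in the control. Immune barcodes had medians of 2 (KO), 0 (rescue) and 0 (control).

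Stem cell markers were over 2-fold lower in 7 of 19 (KO), 13 of 20 (rescue) and 10 of 20 (control), with medians of -0.62 (KO), -1.52 (rescue) and -1.02 (control), which turned to 0.13 in the control with the mitochondrial limit at 10%. *Lgr5*, the receptor that marks stem cells, stood at 0.225 and 0 CPM against 0.505 CPM in the KO, at 0 and 0.972 CPM against 8.78 CPM in the rescue and at 25.6 and 9.48 CPM against 45.4 CPM in the control. KO members held 2 *Lgr5* UMIs in all. *Olfm4* stood at 0.675 and 1.1 CPM against 5.68 CPM in the KO, 7.95 and 4.86 CPM against 46.5 CPM in the rescue and 96.3 and 32.5 CPM against 117 CPM in the control. *Ascl2*, a stem cell transcription factor, stood at 19.2 and 6.5 CPM against 47.5 CPM in the control.

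Genes of mitosis behaved differently by library. All 20 G2/M markers were over 2-fold lower in KO members and 18 of 20 in rescue members, with medians of -2.27 (KO) and -1.50 (rescue), while in control members none was over 2-fold lower, 1 was higher and the median was -0.01. *Mki67*, a proliferation marker, stood at 9.0 and 6.62 CPM against 48.6 CPM in the KO, 71.3 and 44.7 CPM against 111 CPM in the rescue and 110 and 68 CPM against 43.3 CPM in the control. *Top2a*, a topoisomerase of dividing cells, had log2 ratios of -2.05 (KO), -1.11 (rescue) and 1.38 (control). S-phase genes had medians of -1.57 (KO), -1.55 (rescue) and -0.53 (control). Further low genes in all 3 libraries were *Stmn1*, which destabilises microtubules, at 6.81-fold (KO), 4.59-fold (rescue) and 3.3-fold (control) lower, and *Nme1*, a nucleoside diphosphate kinase, at 5.35-fold (KO), 3.25-fold (rescue) and 2.96-fold (control) lower. *Fabp5*, *Sumo2*, *Erh* and *Fkbp3* made up the rest, between 3.08-fold (control, *Erh* and *Fkbp3*) and 9.05-fold (KO, *Fabp5*) lower.

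**Figure D3:**
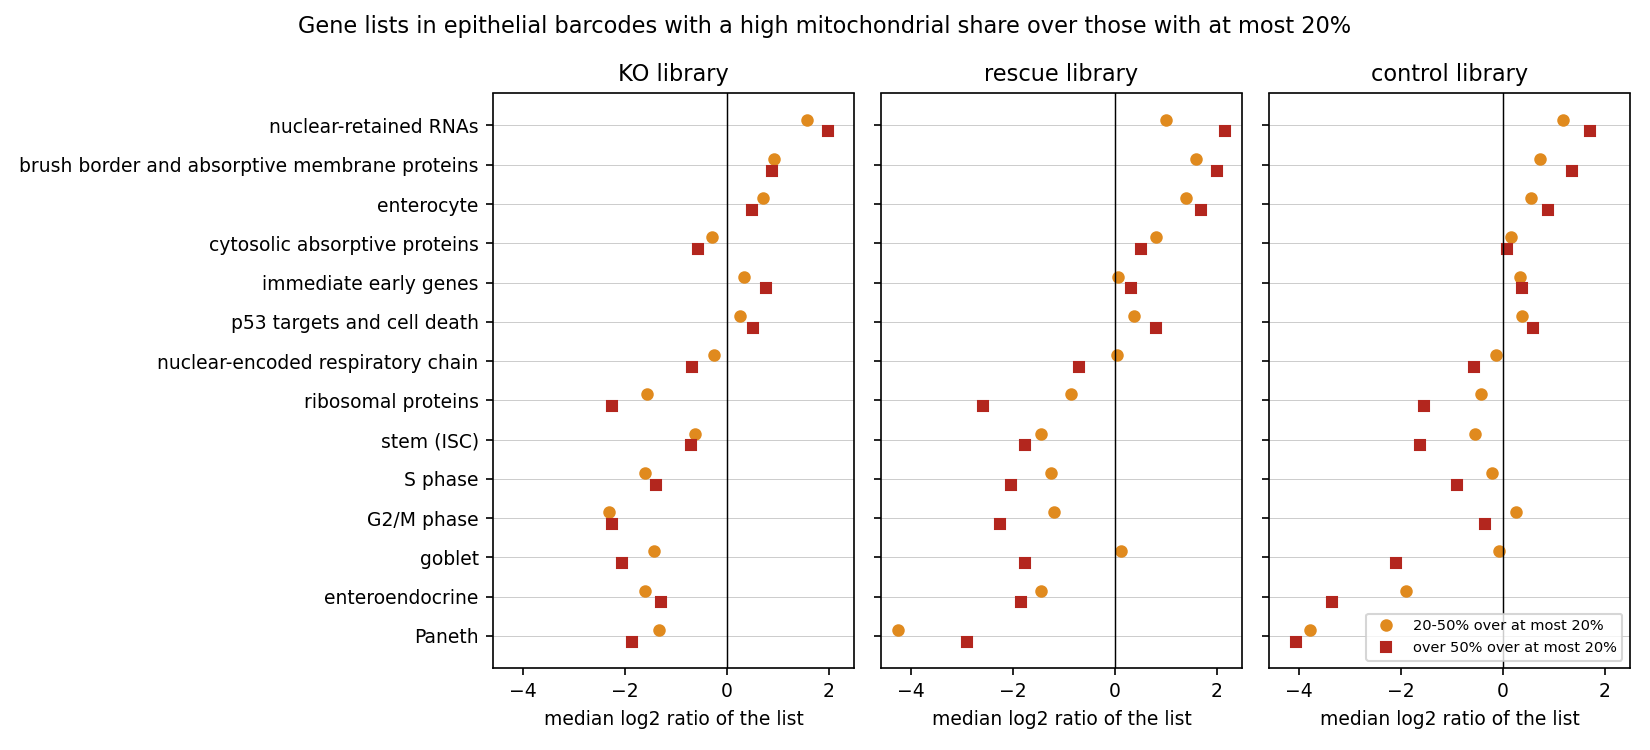
Median log2 ratio of CPM for each gene list in barcodes of 20-50% (circles) and over 50% (squares) mitochondrial UMIs over barcodes with at most 20%, for the KO, rescue and control libraries. The list of nuclear-retained RNAs, *Gm26917* and *Gm42418* included, reaches 1.98 (KO), 2.17 (rescue) and 1.72 (control) over 50%, ribosomal proteins -2.26 (KO), -2.58 (rescue) and -1.54 (control), and the control alone has a G2/M median above 0 at 20-50% (0.25).

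Genes of mitochondria encoded in the nucleus were described on the scale of non-mitochondrial UMIs. The mitochondrial share was the selection rule, so they are not set against the mitochondrial transcripts. Of 28 nuclear-encoded respiratory chain subunits none was over 2-fold higher in members of any library, and 4 (KO), 0 (rescue) and 3 (control) were over 2-fold lower, with medians of -0.33 (KO), -0.15 (rescue) and -0.36 (control). *Cox5a*, a subunit of complex IV, was at -1.38 (KO), -0.62 (rescue) and -1.19 (control), and *Uqcrc1* of complex III at 0.62 (KO), 0.72 (rescue) and 0.65 (control). Over 50% the list medians were -0.68 (KO), -0.70 (rescue) and -0.56 (control). Of 15 genes for mitochondrial genome expression, *Tfam*, which packages mitochondrial DNA, was at -0.94 (KO), -1.18 (rescue) and -0.90 (control), and *Ppargc1a*, a co-activator of mitochondrial biogenesis, at 1.09 (KO), 1.46 (rescue) and 1.06 (control). Medians of that list were 0.09 (KO), -0.10 (rescue) and 0.23 (control), and of the mitophagy, fusion and fission genes 0.25 (KO), 0.10 (rescue) and 0.17 (control). Of 19 genes of the mitochondrial stress response, 1 (KO), 1 (rescue) and 5 (control) were over 2-fold higher and 3 (KO), 3 (rescue) and 2 (control) lower, with medians of -0.20 (KO), -0.15 (rescue) and -0.05 (control). Across all measured genes 8.8% (KO), 14% (rescue) and 19.4% (control) were over 2-fold higher. Over 2-fold lower were 11.3% (KO), 11% (rescue) and 7.74% (control) of them, so the counts of the stress list lie near these shares. Among low members of the stress list the mitochondrial chaperone genes *Hspd1* and *Hspe1* stood at -1.92 and -2.23 (KO), -1.56 and -1.64 (rescue) and -1.0 and -1.12 (control).

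Lists of p53 targets and cell death and of immediate early genes had medians within 0.6 of 0 in all members pooled, and up to 0.81 over 50%. The p53 target and cell death list had medians of 0.28 (KO), 0.59 (rescue) and 0.52 (control), with 3 (KO), 2 (rescue) and 4 (control) of 20 over 2-fold higher and 1 (KO), 0 (rescue) and 0 (control) lower. Over 50% its medians were 0.50 (KO), 0.81 (rescue) and 0.60 (control), with 6 (KO), 7 (rescue) and 7 (control) over 2-fold higher and 2 lower in each library. Across all measured genes in that band 16.1% (KO), 22.2% (rescue) and 22.4% (control) were over 2-fold higher. Over 2-fold lower in it were 17.05% (KO), 20.76% (rescue) and 16.05% (control) of all genes. *Sesn1*, a stress-induced sestrin, was at 1.34 (KO), 1.43 (rescue) and 1.29 (control), while *Bax*, an effector of apoptosis, was at -1.20 (KO), -1.0 (rescue) and -0.88 (control). Immediate early genes, which dissociation is known to induce, had medians of 0.40 (KO), 0.17 (rescue) and 0.36 (control) in all members, and of 0.77 (KO), 0.32 (rescue) and 0.37 (control) over 50%, where 6 (KO), 2 (rescue) and 1 (control) of 18 were over 2-fold higher. That was a larger share than across all genes of the band in the KO and a smaller one in the rescue and control. *Jun* was at 1.05 (KO), 0.31 (rescue) and 0.84 (control), and *Fos* at 0.13 (KO), -0.22 (rescue) and -0.40 (control).

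Among mitochondrial transcripts, *mt-Co2* took a higher share in the KO than in the other libraries in every band, and *mt-Co3* in the rescue. The share of *mt-Co1* differed by band. *mt-Co2*, a subunit of complex IV, took 18.6% and 19.1% of mitochondrial UMIs in KO barcodes of 20-50% and over 50%, against 18.1% with at most 20%. The *mt-Co2* shares were 14.3% and 14.8% against 14.3% in the rescue, and 14.7% and 15.1% against 15.0% in the control. Immune barcodes had 18.3% in the KO, 14.9% in the rescue and 15.5% in the control, so the difference between libraries was not particular to epithelium. *mt-Co3* was higher in the rescue bands (21% and 21.8%) than in the KO (18.2% and 18%) or the control (19.1% and 19.6%). *mt-Co1*, the core subunit of complex IV, took 11% and 10.7% against 13.7% in the KO, 10.9% and 11.3% against 11.3% in the rescue and 10.9% and 9.87% against 12.3% in the control, so it was lower in members of the KO and control libraries. *mt-Nd1*, a subunit of complex I, took 3.18% and 2.98% against 3.93% in the KO, 4.64% and 3.49% against 5.47% in the rescue and 4.09% and 3.68% against 4.26% in the control, lower in members of every library. *mt-Nd6*, the gene on the other strand, took at most 0.0525% in any member band, in the control at 20-50%.

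The ratio between members and the other barcodes was higher for genes with longer transcripts, taken from the longest annotated transcript of each gene. Genes of up to 1000 bases had a median log2 ratio of -0.43 (KO), -0.40 (rescue) and -0.46 (control), and genes of over 6000 bases 0.41 (KO), 0.34 (rescue) and 0.58 (control). Spearman's rho across genes, which are not independent replicates, was 0.30 (KO, 12191 genes), 0.24 (rescue, 12106) and 0.29 (control, 12133). It was 0.29 (KO), 0.23 (rescue) and 0.28 (control) without ribosomal protein genes, and 0.10 (KO), 0.15 (rescue) and 0.18 (control) for GC content. The lists above differ in length, and the part of length in their medians was not tested.

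**Figure D4:**
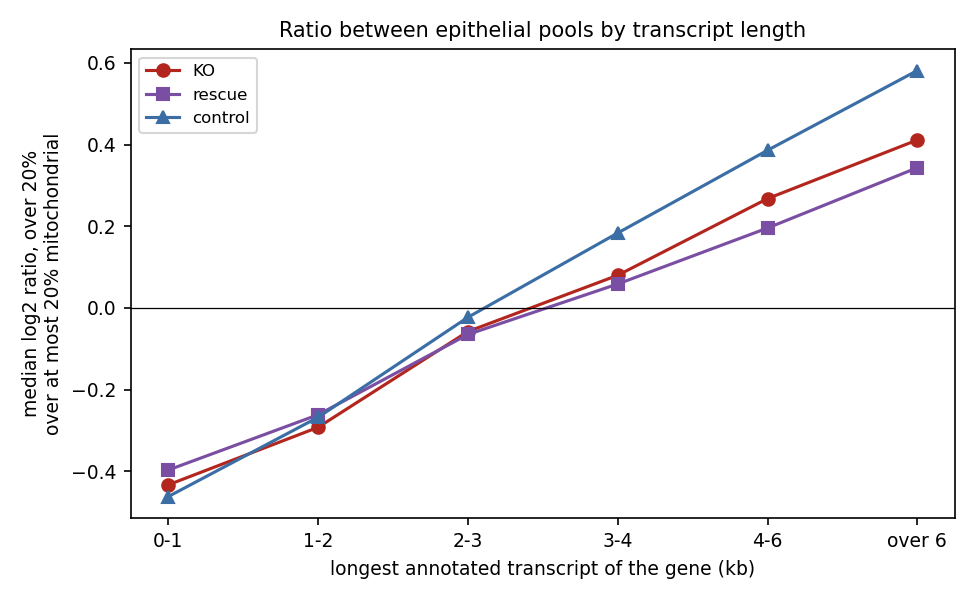
Median log2 ratio of CPM, members over barcodes with at most 20% mitochondrial UMIs, for genes binned by the longest annotated transcript (kb), in the KO, rescue and control libraries. The median runs from -0.43 (KO), -0.40 (rescue) and -0.46 (control) in the shortest bin to 0.41 (KO), 0.34 (rescue) and 0.58 (control) in the longest.

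Immune markers were low in members but not absent. The immune list summed to 122 and 167 CPM in KO barcodes of 20-50% and over 50%, against 50.3 CPM with at most 20%, to 290 and 728 CPM against 294 CPM in the rescue and to 290 and 581 CPM against 130 CPM in the control. Immune barcodes held 38742 (KO), 52205 (rescue) and 50653 CPM (control) of it. *Gzma* and *Ccl5*, made by intraepithelial T cells, led at 116 and 131 CPM in rescue and 169 and 166 CPM in control members. Tuft markers had medians of 0.43 (KO), 1.17 (rescue) and -0.14 (control), and the rescue value turned to -1.59 with the mitochondrial limit at 10%. In the rescue *Dclk1*, a tuft kinase, was at 8.58 CPM in members and 3.34 CPM with at most 20%, and its log2 ratio of 1.14 turned to -2.25 with the limit at 10%. Of the KO members' *Dclk1* UMIs 92.6% came from 1 barcode. Erythroid markers summed to 2776 and 303 CPM against 459 CPM in the KO, to 48.3 and 152 CPM against 417 CPM in the rescue and to 384 and 1566 CPM against 1287 CPM in the control. The part of free RNA in these values was not tested.

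Between libraries, KO members differed from control members in genes of the regenerative program. Over all measured genes 7.78% were over 2-fold higher and 31.2% over 2-fold lower in KO members, with a median of -0.50, so values are read against that shift. The regenerative program had a median of 1.96 in members and 2.39 in barcodes with at most 20%, with 12 of 19 genes over 2-fold higher and 1 lower in members. *S100a6*, a calcium-binding protein of that program, stood at 4053 and 2316 CPM in KO barcodes of 20-50% and over 50%, against 82.5 and 30.6 CPM in control ones. *Clu*, clusterin, stood at 48.7 CPM in KO and 2.03 CPM in control members, with 27.3% of the KO UMIs in 1 barcode. *Cybrd1*, the duodenal ferric reductase, stood at 2944 CPM in KO and 1.55 CPM in control members, a ratio of 1902 (1171 to 3329), and at 908 and 1.87 CPM in the KO and control barcodes with at most 20%. *Ada*, adenosine deaminase, stood at 9141 CPM in KO, 978 CPM in rescue and 76 CPM in control members.

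The annexin gene *Anxa10* stood at 1038 CPM in KO and 0.387 CPM in control members, a ratio of 2684 (1048 to 9852), and *Ctse*, cathepsin E, a protease abundant in stomach, at 507 and 0.29 CPM in KO and control, a ratio of 1746 (597 to 8469) on 3 control UMIs. *Syt8* had 166 CPM in KO and no UMI in control members, at least 573-fold higher against a floor of 3 UMIs over the pool. *Ly6d* stood at 83.3 CPM in KO and 0.29 CPM in control members, a ratio of 287 (98 to 1396) on 3 control UMIs. *Capg*, *Tm4sf4* and *2010109I03Rik* were 75.7-fold, 49.1-fold and 110-fold higher in KO members. In barcodes with at most 20% *Anxa10* had a log2 ratio of 9.52 beside 9.55 in members, and *Tm4sf4* 4.48 beside 5.60.

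Genes with the lowest KO over control ratio included some expressed in enterocytes and in Paneth cells. The enterocyte list as a whole had a median of 0.68 in members and 0.89 with at most 20%, with 9 of 20 over 2-fold higher and 5 lower in members. *Lct*, the brush border lactase, stood at 1.4 CPM in KO and 248 CPM in control members, a log2 ratio of -6.69 beside -6.31 with at most 20%. *Car4*, a membrane carbonic anhydrase, stood at 0.467 and 87 CPM in KO and control members. *Cyp2c66* was 62-fold (36.8 to 114) and the lectin gene *Reg3a* 92.8-fold (59.2 to 154) lower, and *Apol10a* 400-fold (110 to 3305) lower on 2 KO UMIs. Of Paneth genes, *Ang4* was 200-fold (91.8 to 547) lower and *Mptx2* had no UMI in KO members, at least 188-fold lower. *AY761184*, *Gm15284* and *Gm14851*, of the defensin locus, were 155-fold, 78.6-fold and 61.2-fold lower in KO members, and 287-fold, 129-fold and 100.8-fold lower in KO barcodes with at most 20%.

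**Figure D5:**
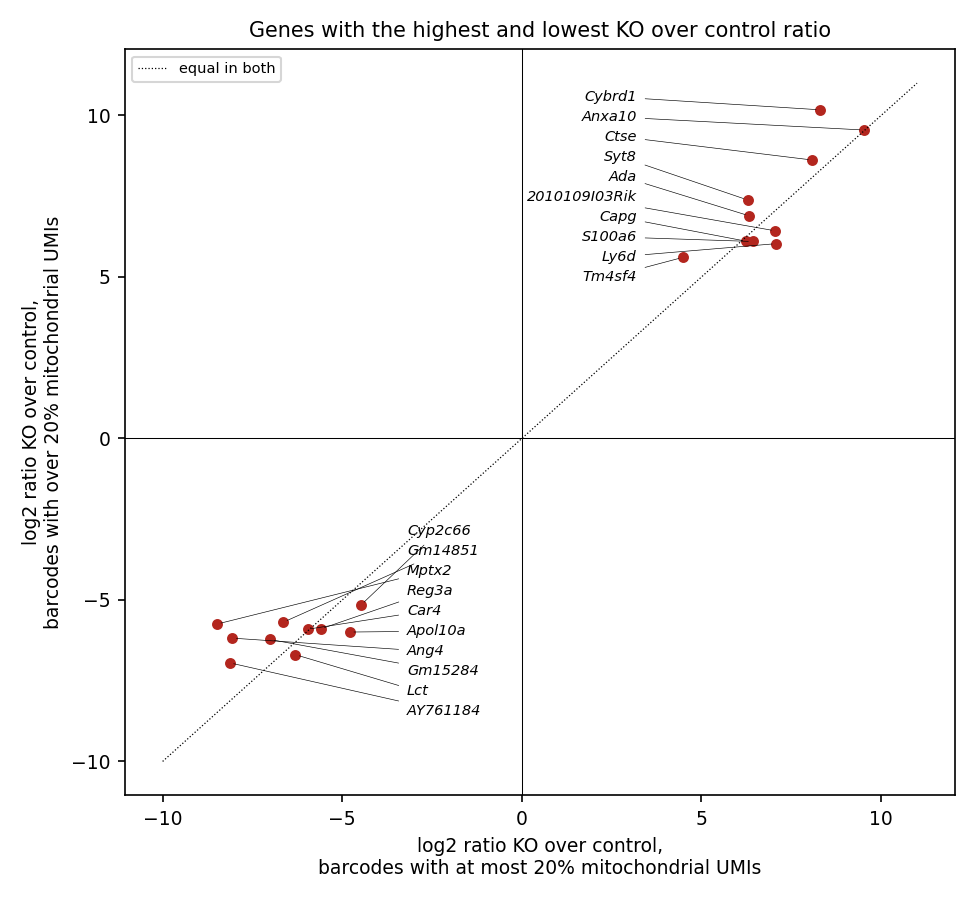
Log2 ratio of CPM in KO over control, in barcodes with over 20% (vertical axis) and with at most 20% (horizontal axis) mitochondrial UMIs, for the 10 highest and 10 lowest genes in members, with a dotted line where both are equal. All 20 genes have the same sign in both pools, from 10.17 (*Cybrd1*) to -6.95 (*AY761184*) in members.

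Some of the lists that differed between members and the other barcodes also differed between the KO and control libraries. Over all genes the KO over control median was -0.50 in members, with 31.2% over 2-fold lower. With at most 20% it was -0.30, with 19.6% over 2-fold lower. Nuclear-retained RNAs, a list that holds *Xist*, had a median of -0.07 in members, with 3 of 7 over 2-fold higher and 1 lower. Ribosomal proteins had a KO over control median of -1.23 in members, with 15 of 20 over 2-fold lower, and -0.60 with at most 20%, with none. G2/M genes had a median of -2.35 in members, with 20 of 20 over 2-fold lower, and -0.13 with at most 20%, with none. Stem cell markers had similar medians of -2.47 in members and -2.56 with at most 20%. Goblet markers were at -0.49 in members, close to the median of all genes, with 4 of 15 over 2-fold lower, and at 0.11 with at most 20%. The goblet value in members turned to 1.35 with each barcode weighted equally and to 0.65 over 50% alone. With 1 library a genotype none of these differences could be tested.

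Genes of the regenerative program were lower in rescue than in KO members. Over 2-fold higher in rescue than in control members were 2.8% of all genes, and 12.3% were lower. Against KO members 17.5% were higher and 7.14% lower. The regenerative program had a rescue over KO median of -3.07 in members, with 18 of 19 genes over 2-fold lower, beside -2.55 with at most 20%. *Anxa10* stood at 3.43 CPM in rescue and 1038 CPM in KO members, *Cybrd1* at 33.8 and 2944 CPM, and *S100a6* at 66.6 and 3759 CPM. *Ctse*, *Syt8*, *Ly6d*, *Tm4sf4*, *Mboat1*, *Bglap3* and *E130012A19Rik* were the other lowest genes, with log2 ratios between -7.46 (*Ctse*) and -5.15 (*Tm4sf4*). *Lct* stood at 252 CPM in rescue and 1.4 CPM in KO members, and *Car4* at 67.6 and 0.467 CPM. *Reg3a*, *Apol10a*, *Cyp2c66* and *Cyp3a25* were 50.1-fold, 1045-fold, 66.5-fold and 34.7-fold higher in rescue members. *St3gal4*, a sialyltransferase, stood at 807 CPM in rescue, 0.0934 CPM in KO (1 UMI) and 5.51 CPM in control members, so it was high in the rescue against both. The hormone genes *Sst*, *Iapp* and *Ghrl* stood at 654, 61.6 and 233 CPM in rescue members, but 98.6%, 98.9% and 96.6% of these UMIs came from 1 barcode each.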

How the data were processed

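The authors deposited, per gene and barcode, a UMI count made with Cell Ranger (3.0.2 for KO and control and 3.1.0 for rescue, per the file headers, and 1.3.0 per the submitters' processing notes). Neither the genome build nor the use of strand is given in the sources used here. Among 28692 gene identifiers, 28339 (98.77%) were matched in GENCODE mouse release 21 (GRCm38), which gave coordinates and transcript lengths. Per the labels, crypts were dissociated for 1 h with 3x TripLE (spelled as in the labels) and libraries made with the 10x 3' kit, version 3. The barcodes, gene lists and comparisons were chosen with earlier results of these data known. Groups followed the labels. Non-mitochondrial counts were summed per library and band, over 10702574 (KO), 5829432 (rescue) and 10339393 (control) UMIs in members, leaving out repeated gene symbols, and scaled to CPM. CPM had exact Poisson, ratios conditional exact binomial and shares exact Clopper-Pearson intervals, all at 95%. A gene counted as measured with at least 20 UMIs in 1 of 2 pools, and as over 2-fold past that ratio with a pseudocount of 1 CPM. There were no replicates, so no tests were made. Ratios and intervals were first tested on simulated data with known answers.

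Genes to be named needed 50 CPM or more in 1 of the 2 pools. They were the 12 highest and 12 lowest by the smallest ratio of the 3 libraries, for members against the rest, and the 10 highest and 10 lowest for KO over control and for rescue over KO with an interval excluding 1. Mitochondrial, sex-linked, *Defa* and immunoglobulin genes were left out of these ranks, and a fixed set such as *Cdc42*, *Lgr5*, *Alpi* and *Malat1* was always named. Sex-linked genes given above and examples chosen within a list (such as *Gzma*, *Tfam*, *Bax*, *Jun*) were picked after their values were seen. Doublets were not called, and barcodes with the highest 5% of UMIs in each library were left out in an alternative. Other alternatives changed the mitochondrial limit (10 or 30%), the *Epcam* minimum, the UMI minimum, the weight of barcodes, the scaling, the pseudocount, the count minimum and the band. Python 3.11.15, numpy 2.4.6, scipy 1.17.1, pandas 2.3.3 and matplotlib 3.10.9 were used.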

Additional observations from a re-analysis of the deposited data

Results flagged for a closer look

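Erythroid markers had opposite directions between libraries, with medians of 2.35 (KO), -2.16 (rescue) and -0.24 (control) for members over barcodes with at most 20% mitochondrial UMIs. KO over control they stood at 0.85 in members and -1.37 with at most 20%. The 3 targeted genes *Cdc42*, *Yap1* and *Wwtr1* had a KO over control median of -0.64 in members and 0.60 with at most 20%. Medians over all genes were -0.50 and -0.30. The median of the targeted genes in members is the value of *Wwtr1*, which is not in the KO genotype. *Cdc42*, the gene floxed in the KO mice, was higher in KO than in control members. The KO erythroid median was 2.58 at 20-50% and -0.71 over 50%, and it was -0.18 with barcodes weighted equally. Only 8 of the 1011 thinned KO barcodes of 20-50% had at least 10 erythroid UMIs of 1000. These differences were not tested.

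Barcodes over 20% with neither *Epcam* nor *Ptprc*, which entered no comparison, held enterocyte markers at 58210 CPM and goblet markers at 29422 CPM in the KO, above 28341 and 4560 CPM in the control. In the rescue they held immune markers at 5767 CPM, against 1670 CPM in the control.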

How the results depend on the processing

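No paired analysis was possible because there was 1 library per genotype and no result came from a test. The share of high-mitochondrial barcodes was 77.3% (KO), 89.6% (rescue) and 94.6% (control) with a limit of 10%, and 42%, 47.1% and 80.4% with 30%. It was 55.3%, 50.1% and 80.4% with 1 *Epcam* UMI on both sides, 52.2%, 49.2% and 80.5% with 2, and 61.0%, 59.1% and 90.4% without the highest 5% of UMIs, in the same order. It was 50.8% (KO) with 500 genes and 1000 UMIs, and 49.5% (KO) and 86.1% (control) with 2000 UMIs, a limit added after seeing the data.

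Genes over 2-fold in KO members against the rest numbered 1075 higher and 1377 lower. Higher were 527 with the limit of 10%, 716 scaled by the median ratio and 560 with a pseudocount of 5 CPM, and lower were 885 with barcodes weighted equally and 770 with 5 CPM. In the rescue (1693 higher, 1330 lower) 5 CPM gave 1101 higher and 742 lower, and the limit of 10% 594 lower. In the control (2361 higher, 941 lower) 5 CPM gave 1552 higher and 429 lower. Lower in the control were 597 with the limit of 10%, 1532 with 30%, 2406 without the highest 5% of UMIs, 1613 weighted equally and 1479 scaled by the median ratio. KO over control (904 higher, 3629 lower) gave 1575 higher scaled by the median ratio and 2012 lower with 5 CPM. Rescue over control (318 higher, 1401 lower) gave 195 higher with the limit of 10%, 500 weighted equally and 196 with 5 CPM, and 622 lower with 5 CPM. Rescue over KO (1840 higher, 751 lower) gave 3048 higher with the limit of 10%, 1123 scaled by the median ratio, 954 with 5 CPM and 1120 over 50% alone, and 479 lower with 5 CPM and 448 over 50% alone. Scaling by the median ratio shifts all log2 values by 0.13 (KO), 0.11 (rescue) and 0.18 (control) for members over the rest, -0.36 for KO over control and 0.30 for rescue over KO.

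Of values past 2-fold, those that turned in sign were erythroid markers in the KO (-0.18 weighted equally), tuft markers (-1.59) and *Dclk1* (-2.25) in the rescue, stem cell markers (0.13) and *Fabp1* (4.30) in the control with the limit of 10%, *Fabp1* in the control (1.08) without the highest 5% of UMIs, and rescue over KO *Dclk1* (-0.29) and *Lyz1* (-0.27) with the limit of 10%. Of 2009 list medians under an alternative, 1834 stayed within the spread of the list's own genes about the median, 172 did not, and 3, all past 2-fold, are the turned ones named above. Of the 1297 values whose main median was within 2-fold, 94 had the other sign. The nuclear-retained medians without *Gm26917* and *Gm42418* stayed within that spread. The causes were not tested. Depth limits genes near or below 20 UMIs per pool, such as *Lgr5* with 2 UMIs in KO members.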
